A study of Mus musculus with 15 samples.

Results

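The conjugation enzymes of the mouse small intestinal epithelium were described here as 46 genes, out of 19938 gene symbols measured. Genes were taken by name, but the families were chosen with earlier results of these data known. Each had an array row with exactly 1 gene symbol beginning with Ugt1, Ugt2, Sult, Mgst, Gsta, Gstm, Gstp, Gstt, Gstk, Gsto or Gstz. The row with the highest mean was used for each symbol. By family there were 8 UDP-glucuronosyltransferases (UGT), 16 sulfotransferases (SULT), 19 cytosolic and mitochondrial glutathione transferases (GST; 2 alpha, 1 kappa, 7 mu, 2 omega, 2 pi, 4 theta and 1 zeta) and 3 microsomal glutathione transferases (MGST). No row with 1 symbol began with Ugt1, and 10 further rows of these families carried several symbols and were not counted as members.

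Conjugation makes lipophilic drugs, plant compounds, bile acids, steroids and reactive aldehydes more soluble by adding a polar group. UGT enzymes transfer glucuronic acid from UDP-glucuronate, SULT enzymes transfer a sulfonate group from PAPS (3'-phosphoadenosine 5'-phosphosulfate), and GST enzymes join glutathione to electrophiles. Enterocytes carry out much of this work on absorbed compounds before these reach the portal blood, and the products leave the cell through export pumps.

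Transcripts were measured on Affymetrix Mouse Gene 1.0 arrays with RNA of epithelial cells isolated from adult mice, 15 arrays in 5 groups of 3. The groups were ileum of Gata4 conditional knock-in mice (cKI ileum), ileum of mice labelled only as control (control ileum), jejunum of Gata4 conditional knockout mice (cKO jejunum), jejunum of wild-type CD1 mice (WT jejunum) and ileum of wild-type CD1 mice (WT ileum). GATA4 is a transcription factor found in duodenum and jejunum and largely missing from ileum. The driver of recombination, the strain of the cKI, cKO and control mice, the genotype of the controls and the age in weeks are not given in the sources used here, and no jejunum of control mice was analysed here, so the jejunum labelled cKO was set against that of WT mice. The labels do not say that each array came from a separate animal, so a p-value covers only the spread from array to array, which may be technical. With 3 arrays in each group, their number limits the precision.

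All values are log2 signals, in which 1 unit is a 2-fold step, and a level was taken as above the filter when it exceeded 4.91, the median of all values. A gene was tested when at least 1 group mean lay above the filter, which left 11784 genes and 31 of the 46 members. Every difference is the first group minus the second with its standard error (SE), from 1 limma fit over all arrays with Benjamini-Hochberg adjusted p-values over all genes tested, and a gene was said to rise or fall when its adjusted p was under 0.05. Array medians lay between 4.82 and 5.0, and arrays of 1 group correlated at 0.9695 to 0.9891. All 12 enterocyte markers were above the filter in each of the 5 groups. The 15 stromal and smooth muscle markers, of which Pdgfra and Lum stayed below the filter in all groups, had mean levels per array of 5.07 to 5.46 in cKI ileum, 5.42 to 6.61 in control ileum, 4.78 to 4.99 in cKO jejunum, 4.46 to 4.69 in WT jejunum and 5.17 to 5.57 in WT ileum.

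Gata4 signal was 8.02, 8.43 and 8.17 in cKI ileum, against 6.71, 7.22 and 6.53 in control ileum, a difference of 1.38 ± 0.185 (SE; limma adjusted p = 0.00453). It was 9.72, 9.88 and 9.93 in cKO jejunum, against 9.68, 9.45 and 9.47 in WT jejunum, a difference of 0.31 ± 0.185 (adjusted p = 0.322). The Gata4 signal was therefore not lower in the arrays labelled cKO. The labels do not say which part of the gene was deleted, and 1 value averages probes along the gene, so this value does not check the knockout. The group is called the jejunum labelled cKO wherever a direction is drawn from it. WT ileum had 5.99, 5.43 and 5.39.

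The stretch of 250 bases before the transcription start is shown for 5 members. Gstm6, Gstm7 and Ugt2a3 rose in cKI ileum. Sult6b2 had the lowest difference of the jejunum labelled cKO minus WT jejunum, but was tested through its WT jejunum level alone. Gstm3 is a neighbour of Gstm6 with another pattern of values. The sequences are from RefSeq (GRCm38.p6), written 5' to 3' on the strand of the gene, and capitals mark GATA motifs, searched on both strands as the letters GATA with A or T before them and A or G after them. All 5 genes lie on the minus strand: Gstm6 at chr3:107953467-107953716, Gstm7 at chr3:107931818-107932067, Ugt2a3 at chr5:87337196-87337445, Sult6b2 at chr6:142804467-142804716 and Gstm3 at chr3:107969175-107969424.
Gstm6: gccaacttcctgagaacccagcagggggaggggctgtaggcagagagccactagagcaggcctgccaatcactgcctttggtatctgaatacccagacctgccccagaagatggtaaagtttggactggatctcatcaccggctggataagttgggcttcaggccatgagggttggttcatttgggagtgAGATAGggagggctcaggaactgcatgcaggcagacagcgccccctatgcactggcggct
Gstm7: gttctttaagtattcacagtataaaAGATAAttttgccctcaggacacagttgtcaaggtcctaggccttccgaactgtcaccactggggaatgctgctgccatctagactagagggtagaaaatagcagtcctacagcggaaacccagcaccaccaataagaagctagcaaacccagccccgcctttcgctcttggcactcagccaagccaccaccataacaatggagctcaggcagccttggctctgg
Ugt2a3: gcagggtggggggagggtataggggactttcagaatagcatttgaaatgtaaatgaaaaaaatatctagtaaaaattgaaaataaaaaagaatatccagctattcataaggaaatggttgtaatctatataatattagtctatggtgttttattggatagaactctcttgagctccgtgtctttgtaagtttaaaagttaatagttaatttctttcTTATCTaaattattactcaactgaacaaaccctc
Sult6b2: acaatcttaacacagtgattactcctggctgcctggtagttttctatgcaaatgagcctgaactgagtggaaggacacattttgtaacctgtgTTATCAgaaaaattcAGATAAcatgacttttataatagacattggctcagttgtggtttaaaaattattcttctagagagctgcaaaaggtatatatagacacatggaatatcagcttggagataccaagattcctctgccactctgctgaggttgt
Gstm3: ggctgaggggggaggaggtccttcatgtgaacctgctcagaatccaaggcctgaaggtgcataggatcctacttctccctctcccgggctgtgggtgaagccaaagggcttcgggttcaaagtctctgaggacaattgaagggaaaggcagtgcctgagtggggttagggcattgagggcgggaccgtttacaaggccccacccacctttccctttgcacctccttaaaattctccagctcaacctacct
Gstm6 had AGATAG 60 bases before its start and Gstm7 had AGATAA 225 bases before its start. Ugt2a3 had AGATAA on the other strand, 34 bases before the start. Sult6b2 had TGATAA on the other strand, 157 bases before the start, and AGATAA 142 bases before it. The Gstm3 window held none of these letters. Of the other members that fell in the jejunum labelled cKO, Gstk1 and Gstp3 had a GATA motif, and Gstm4, Gstt1, Mgst2, Mgst3 and Sult1b1 had none. Gsta3, Gstm2, Sult1d1, Ugt2b35, Ugt2b36 and Ugt2b38, which passed in neither Gata4 comparison, had a motif, as did members never above the filter, such as Sult2a3 and Ugt2b1. Whether a motif goes with a change was not tested. Of the 46 members, 43 had a window in the RefSeq table (Gsta4, Gstt2 and Sult4a1 are named only). For each member 1 window was used, that of the start farthest 5'. Gstm6 had 3 windows and Gstm7 had 2. Over the whole window of 300 bases, which runs to 50 bases past the start, 19 of 43 held a GATA motif (44.2%), against 9778 of 32851 windows of all genes (29.8%). The windows of all genes include several for some genes, so the shares are not on the same basis. The antioxidant response element TGACNNNGC, the motif bound by NRF2, was in 3 of 43 (6.98%; Gsta3, Gstm5 and Mgst1), against 12.4% of all windows. A match is a description of the letters and not a binding site.

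Most of the conjugation enzymes that were tested were higher in jejunum than in ileum of WT mice. Of the 31 members tested, 23 rose in WT jejunum relative to WT ileum, 1 fell (Sult1c2) and 7 did not pass the test. Among all genes tested, 13.4% rose and 7.91% fell. The groups did not overlap for 25 members, where 40.3% of all genes tested did not overlap. The median difference of the 31 members was 0.77, beside 0.00 over all genes tested. Since a gene could pass the filter through the higher group alone, the 29 members with all 5 group means above the filter were also counted, and 21 of them rose and 1 fell. The exceptions were Gstm6 and Sult6b2.

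Ugt2a3, a glucuronosyltransferase that in humans acts on bile acids, was at 9.82, 9.74 and 9.51 in WT jejunum, against 5.26, 4.65 and 5.49 in WT ileum. The groups did not overlap and were further apart for Ugt2a3 than for any other tested member, by 4.56 ± 0.281 (23.5-fold, adjusted p = 3.71e-08). Ugt2b34, the UGT with the highest overall mean, belongs to the subfamily that acts on steroids and xenobiotics. It was at 11.82, 11.81 and 11.79 in WT jejunum, against 11.20, 10.85 and 10.91 in WT ileum, a smaller step of 0.82 ± 0.121 (1.76-fold, adjusted p = 0.000158). Ugt2b5 was at 7.09, 7.15 and 6.72 in WT jejunum, against 5.27, 5.63 and 5.64 in WT ileum. Its groups did not overlap either, and it rose by 1.47 ± 0.256 (2.77-fold, adjusted p = 0.00064). Ugt2b35 and Ugt2b38 rose by 1.11 and 0.77, while Ugt2b36 did not pass (0.57 ± 0.238, adjusted p = 0.11). Ugt2b1 and Ugt2b37 lay below the filter in every group.

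Of the 7 mu-class GST genes, which encode cytosolic enzymes that conjugate epoxides and other electrophiles, 6 rose in WT jejunum. Gstm6 was at 7.90, 7.35 and 7.30 in WT jejunum, against 4.14, 3.76 and 4.02 in WT ileum. All 3 ileal values lay below the filter, so the difference of 3.55 ± 0.168 (adjusted p = 2.48e-09) is given without a fold. Gstm3 was at 11.66, 11.51 and 11.60 in WT jejunum, against 9.62, 8.29 and 8.40 in WT ileum, where the first array stood above the other two. It rose by 2.82 ± 0.344 (7.08-fold, adjusted p = 2.84e-05), and a second array row for Gstm3 gave group means of 11.35 in WT jejunum and 8.26 in WT ileum. Gstm7 was at 7.73, 7.71 and 7.56 in WT jejunum, against 5.54, 5.27 and 4.94 in WT ileum, a rise of 2.42 ± 0.154 (5.35-fold, adjusted p = 4.93e-08). Gstm1 was at 10.01, 9.99 and 9.98 in WT jejunum, against 8.14, 7.38 and 7.93 in WT ileum, a rise of 2.18 ± 0.201 (4.52-fold). Gstm4 was at 7.62, 7.58 and 7.31 in WT jejunum, against 5.82, 5.80 and 5.48 in WT ileum, a rise of 1.80 ± 0.18 (3.49-fold). For each of these genes every jejunal array lay above every ileal array. Gstm2 rose by 0.83 (adjusted p = 0.00781), and Gstm5 did not pass, with means of 7.01 ± 0.08 in WT jejunum and 7.04 ± 0.11 in WT ileum (SD, n = 3 each; limma adjusted p = 0.936). Mu-class genes are close paralogs, and whether their probes share signal was not tested.

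**Figure D1:**
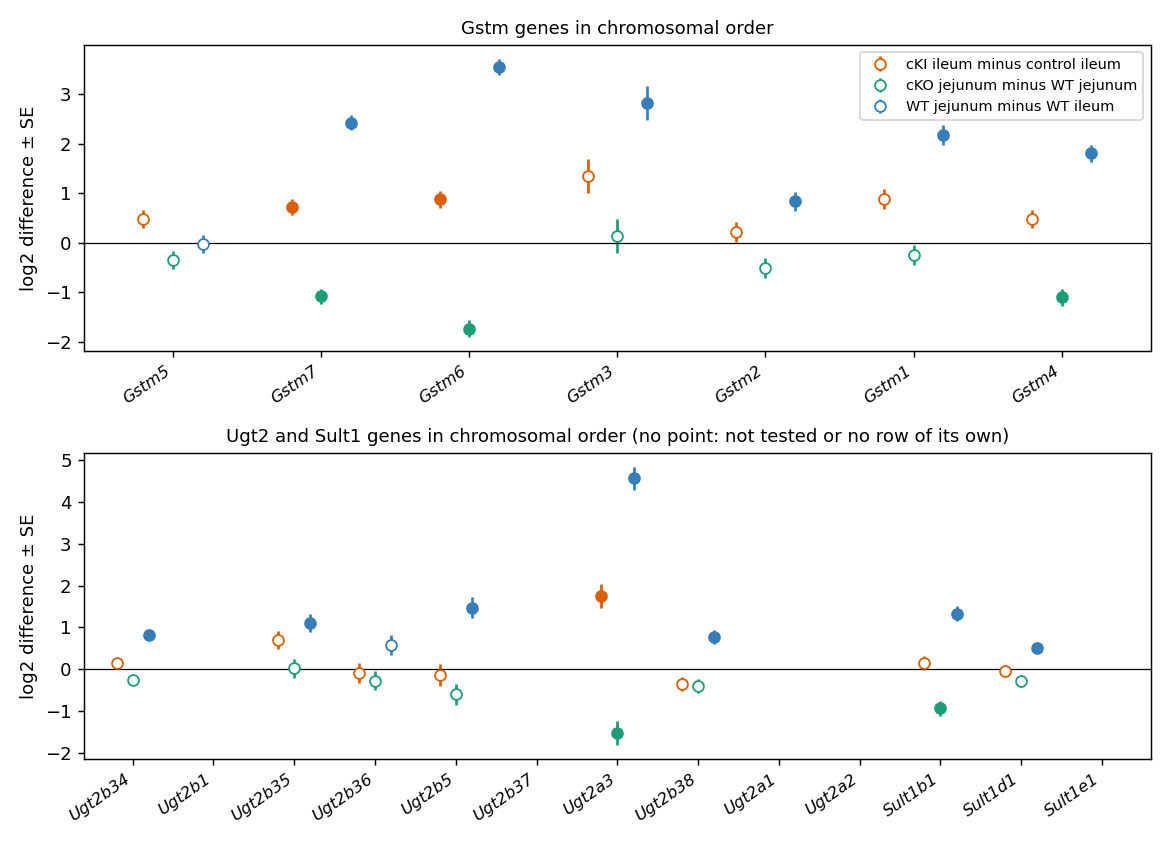
Differences (log2, with SE) of genes in the Gstm cluster and the Ugt2 and Sult1 cluster in their chromosomal order for 3 comparisons: cKI minus control ileum, cKO minus WT jejunum, and WT jejunum minus WT ileum. Along the Gstm cluster the regional difference ran through -0.03 (Gstm5), 2.42 (Gstm7), 3.55 (Gstm6), 2.82 (Gstm3), 0.83 (Gstm2), 2.18 (Gstm1) and 1.80 (Gstm4).

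The mu-class genes lie beside each other on chromosome 3 in the order Gstm5, Gstm7, Gstm6, Gstm3, Gstm2, Gstm1 and Gstm4 in RefSeq, and the plot of differences in chromosomal order shows values of unequal size along the cluster. Gstm5 at one end did not pass the test, its neighbours Gstm7, Gstm6 and Gstm3 rose by over 2 log2 units, and Gstm2, between Gstm3 and Gstm1, had a smaller value than either. The genes were not tested against each other. In the second cluster, on chromosome 5, Ugt2a3 rose by 4.56 beside Ugt2b37, which stayed below the filter.

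Outside the mu class, Gstt1 of the theta class, whose human counterpart acts on small halogenated compounds, was at 8.56, 8.29 and 7.89 in WT jejunum, against 6.11, 6.02 and 5.88 in WT ileum. It rose by 2.24 ± 0.214 (4.74-fold, adjusted p = 2.71e-06). Gstk1, the kappa-class enzyme of mitochondria and peroxisomes, was at 9.57, 9.67 and 9.32 in WT jejunum, against 7.34, 6.98 and 7.61 in WT ileum. It rose by 2.21 ± 0.204 (4.63-fold, adjusted p = 1.95e-06), and for both genes the groups stood far apart relative to the spread within them. Mgst3, a microsomal enzyme with glutathione-dependent peroxidase activity, was at 10.61, 10.77 and 10.46 in WT jejunum, against 10.07, 9.76 and 9.95 in WT ileum, a rise of 0.69 ± 0.123 (1.61-fold, adjusted p = 0.000832). Smaller rises were measured for Gstp3 (0.95), Gstp1 (0.72; pi class), Gstz1 (0.72; maleylacetoacetate isomerase of tyrosine breakdown), Gsto1 (0.64; omega class, a thiol transferase), Mgst2 (0.50; an enzyme that can form leukotriene C4) and Gstt3 (0.45). The Gstt3 call ended when any array but the second of WT jejunum was left out (adjusted p = 0.0576 to 0.0996) and after quantile normalization (0.0534). The Mgst2 call ended without the first or second WT jejunum array or the second WT ileum array (0.0854 to 0.129), and that of Gstp1 without the second WT ileum array (0.0523).

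Some members differed little between the regions. Mgst1, an abundant detoxifying enzyme of the endoplasmic reticulum and outer mitochondrial membrane, was at 9.95, 10.04 and 9.95 in WT jejunum, against 9.92, 10.04 and 10.11 in WT ileum (-0.04 ± 0.132, adjusted p = 0.869). Its group means stayed between 9.90 and 10.02 in all 5 groups. Gsta4, which conjugates the lipid peroxidation product 4-hydroxynonenal, was at 8.86, 8.60 and 8.14 in WT jejunum, against 8.14, 8.28 and 8.24 in WT ileum, with overlapping groups (0.31 ± 0.256, adjusted p = 0.455). Gsta3, Gstt2 and Sult2b1 also did not pass.

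Of the 16 SULT genes, 11 lay below the filter in every group, so only 5 were tested. Sult1b1, which sulfonates phenols and thyroid hormones, was at 10.25, 10.17 and 10.13 in WT jejunum, against 9.04, 8.63 and 8.90 in WT ileum, a rise of 1.33 ± 0.176 (2.51-fold, adjusted p = 6.2e-05). Sult1d1, a catecholamine sulfotransferase in the mouse, was at 10.14, 10.31 and 10.03 in WT jejunum, against 9.67, 9.66 and 9.63 in WT ileum, a rise of 0.51 ± 0.131 (1.42-fold, adjusted p = 0.011) that did not pass without the second WT jejunum array (adjusted p = 0.0608). Sult6b2 was at 6.38, 6.81 and 6.07 in WT jejunum, against 3.39, 3.83 and 3.15 in WT ileum, a difference of 2.96 ± 0.247. It was above the filter in WT jejunum only, among the 5 groups. Its difference is therefore given as a description. Sult1c2, a phenol sulfotransferase, went the other way, at 5.24, 5.07 and 4.76 in WT jejunum, against 6.09, 5.64 and 6.14 in WT ileum, and fell by 0.93 on the log2 scale (SE 0.212, 1.91-fold lower, adjusted p = 0.00491).

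Other cell types moved with the region as well. Of 13 stromal markers tested, 0 rose and 8 fell in WT jejunum relative to WT ileum, and of 8 goblet cell markers, 0 rose and 6 fell. The goblet markers' mean level per array was 9.96 to 10.70 in WT jejunum and 11.08 to 11.54 in WT ileum. Of 12 enterocyte markers, 5 rose and 2 fell, with mean levels per array of 11.88 or more (mean 11.96) in WT jejunum and 10.95 to 11.58 in WT ileum. Of 7 B and plasma cell markers, 0 rose and 3 fell, with mean levels of 5.08 to 5.37 in WT jejunum and 6.05 to 6.56 in WT ileum. The ranges of all 4 of these lists stood apart between the regions. With the stromal mean as a covariate, 18 members rose and 0 fell, and Gstt3, Gstz1, Mgst2, Ugt2b35, Ugt2b38 and Sult1c2 no longer passed. The part of enterocytes, goblet cells and B cells in the result was not tested. In these bulk samples, fewer cells of a type and less RNA per cell cannot be told apart.

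**Figure D2:**
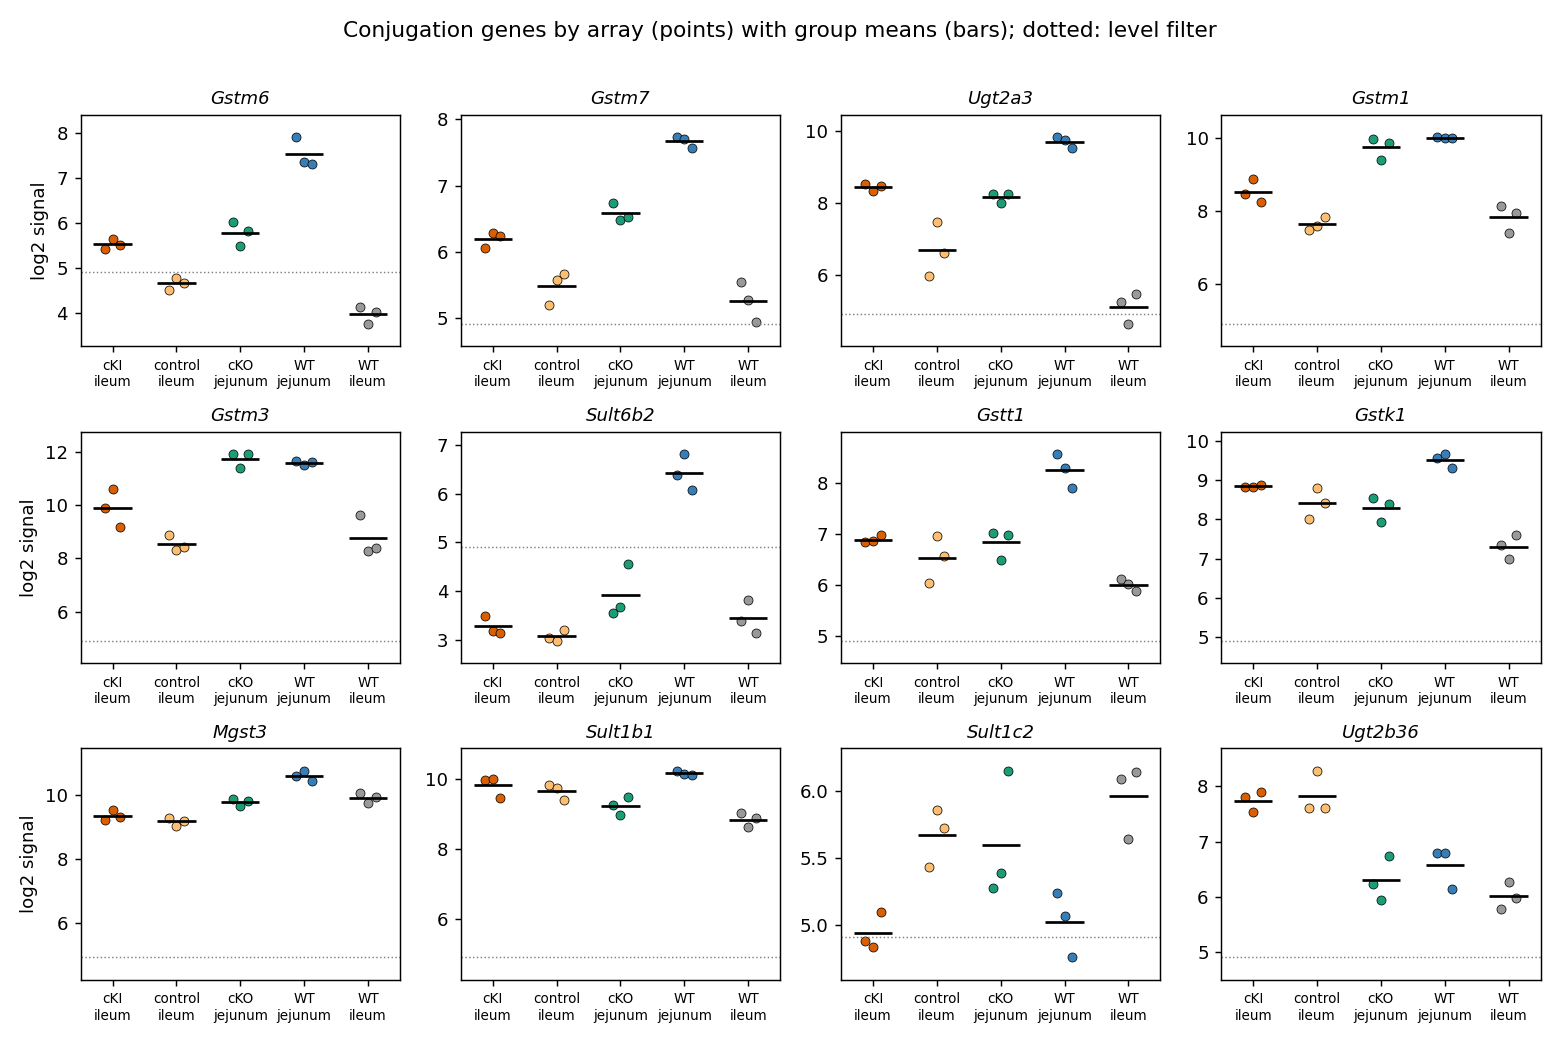
Log2 signal of 12 members in each of the 15 arrays (points) with group means (bars), for cKI ileum, control ileum, cKO jejunum, WT jejunum and WT ileum. In the Ugt2a3 panel the cKI ileum points lie at 8.33 to 8.52, above all control ileum points (5.98 to 7.47), and the points of the jejunum labelled cKO lie at 7.99 to 8.24, below all WT jejunum points (9.51 to 9.82).

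The jejunum labelled cKO was set against WT jejunum to ask which enzymes change in jejunum of Gata4 conditional knockout mice. The strain of the cKO mice is not given. An effect of Gata4 and one of mouse strain therefore cannot be told apart in comparisons of the cKO arrays with those of WT mice. No member rose, 11 fell and 20 of the 31 tested did not pass. Among all genes tested, 5.17% rose and 7.65% fell, and the median difference was -0.31 for the members and -0.03 for all genes. Of the 29 members with all group means above the filter, 0 rose and 9 fell. The genes that fell came from several families: 3 mu-class genes (Gstm6, Gstm7, Gstm4), Gstt1, Gstk1, Gstp3, Mgst3, Mgst2, Sult6b2, Sult1b1 and Ugt2a3. Of these, Sult6b2 was tested through its WT jejunum level alone. This comparison and the one between WT jejunum and WT ileum share the WT jejunum arrays, so the values of both are given for the same genes without a measure of their agreement.

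Sult6b2 was at 3.56, 3.67 and 4.56 in the jejunum labelled cKO, against 6.38, 6.81 and 6.07 in WT jejunum. All 3 values of the jejunum labelled cKO were below the filter, and the difference was -2.49 ± 0.247. Sult6b2 was tested through its WT jejunum level alone, so this difference is given as a description. Against WT ileum the difference was 0.48 ± 0.247, with both group means below the filter. Gstm6 was at 6.01, 5.48 and 5.82 in the jejunum labelled cKO, against 7.90, 7.35 and 7.30 in WT jejunum, a difference of -1.74 ± 0.168 (3.35-fold lower, adjusted p = 8.63e-06). Gstm7 was at 6.73, 6.48 and 6.52 in the jejunum labelled cKO, against 7.73, 7.71 and 7.56 in WT jejunum, a difference of -1.09 ± 0.154 (2.13-fold lower, adjusted p = 0.000242). Both stood between the 2 WT groups, since they were also higher in the jejunum labelled cKO than in WT ileum, Gstm6 by 1.80 (adjusted p = 2.64e-05) and Gstm7 by 1.33 (adjusted p = 0.000207). Gstm4 was at 6.03, 6.45 and 6.72 in the jejunum labelled cKO, against 7.62, 7.58 and 7.31 in WT jejunum, a difference of -1.11 ± 0.18 (2.16-fold lower, adjusted p = 0.000801).

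Gstm3 and Gstm1, in the same cluster, did not pass the test. Gstm3 was at 11.91, 11.37 and 11.91 in the jejunum labelled cKO, against 11.66, 11.51 and 11.60 in WT jejunum, with overlapping groups (0.14 ± 0.344, adjusted p = 0.853). Gstm1 was at 9.97, 9.39 and 9.84 in the jejunum labelled cKO, against 10.01, 9.99 and 9.98 in WT jejunum (-0.26 ± 0.201, adjusted p = 0.467). The difference in response between Gstm6 and Gstm3 was itself not tested. Against WT ileum, both genes were higher in the jejunum labelled cKO, Gstm3 by 2.96 ± 0.344 (7.79-fold, adjusted p = 0.000209) and Gstm1 by 1.92 ± 0.201 (3.78-fold, adjusted p = 7.84e-05).

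Ugt2a3 was at 8.24, 7.99 and 8.24 in the jejunum labelled cKO, against 9.82, 9.74 and 9.51 in WT jejunum, a difference of -1.53 ± 0.281 (2.89-fold lower, adjusted p = 0.00199). It was still 3.02 ± 0.281 above WT ileum (8.14-fold, adjusted p = 2.63e-05). The other 5 UGT genes tested did not pass. Ugt2b34 was at 11.72, 11.39 and 11.53 in the jejunum labelled cKO, against 11.82, 11.81 and 11.79 in WT jejunum (-0.26 ± 0.121, adjusted p = 0.194), and Ugt2b5 was at 5.80, 6.40 and 6.97 in the jejunum labelled cKO, against 7.09, 7.15 and 6.72 in WT jejunum (-0.60 ± 0.256, adjusted p = 0.152). The Ugt2b5 values overlapped through the third array of the jejunum labelled cKO, and without that array it fell by 0.89 on the log2 scale (adjusted p = 0.0257).

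Gstt1 was at 7.01, 6.48 and 6.98 in the jejunum labelled cKO, against 8.56, 8.29 and 7.89 in WT jejunum, a difference of -1.42 ± 0.214 (2.68-fold lower, adjusted p = 0.000427). Gstk1 was at 8.56, 7.94 and 8.40 in the jejunum labelled cKO, against 9.57, 9.67 and 9.32 in WT jejunum, a difference of -1.22 ± 0.204 (2.33-fold lower, adjusted p = 0.000954). In both genes the groups did not overlap. Mgst3 was at 9.88, 9.67 and 9.81 in the jejunum labelled cKO, against 10.61, 10.77 and 10.46 in WT jejunum, a difference of -0.82 ± 0.123 (1.77-fold lower, adjusted p = 0.000393), and it did not pass against WT ileum (-0.14, adjusted p = 0.588). Sult1b1 was at 9.28, 8.97 and 9.50 in the jejunum labelled cKO, against 10.25, 10.17 and 10.13 in WT jejunum, a difference of -0.93 ± 0.176 (1.91-fold lower, adjusted p = 0.00243).

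Mgst2 was at 9.30, 9.14 and 9.59 in the jejunum labelled cKO, against 9.96, 9.96 and 9.83 in WT jejunum (-0.57 ± 0.152, adjusted p = 0.0213). Gstp3 was at 5.78, 6.03 and 6.22 in the jejunum labelled cKO, against 6.82, 6.61 and 6.41 in WT jejunum (-0.61 ± 0.161, adjusted p = 0.0214). These were the 2 weakest calls, and both ended when single arrays were left out: leaving out the first or the second array of either group brought Gstp3 to an adjusted p of 0.0538 to 0.103 and Mgst2 to 0.0545 to 0.0963. Sult1c2 was at 5.28, 5.39 and 6.15 in the jejunum labelled cKO, against 5.24, 5.07 and 4.76 in WT jejunum. Its groups did not overlap, and the difference of 0.58 ± 0.212 did not pass (adjusted p = 0.0919), except without the first array of the jejunum labelled cKO (0.74, adjusted p = 0.0445).

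Of the remaining members that did not pass in the jejunum labelled cKO, Gstp1 was at 11.27, 10.90 and 11.07 there, against 11.34, 11.13 and 11.16 in WT jejunum. Gsto1 was at 9.86, 9.80 and 9.97 in the jejunum labelled cKO, against 10.17, 10.10 and 10.10 in WT jejunum. The first pair of groups overlapped and the second did not. Sult1d1 was at 9.87, 9.82 and 9.91 in the jejunum labelled cKO, against 10.14, 10.31 and 10.03 in WT jejunum (-0.29 ± 0.131, adjusted p = 0.172), without overlap. Gstz1 was at 6.98, 7.23 and 7.41 in the jejunum labelled cKO, against 7.80, 7.63 and 7.10 in WT jejunum, and Gstt3 was at 7.86, 7.65 and 8.29 in the jejunum labelled cKO, against 8.10, 7.93 and 8.01 in WT jejunum, both with overlap. Mgst1 was at 9.66, 10.01 and 10.31 in the jejunum labelled cKO, against 9.95, 10.04 and 9.95 in WT jejunum, and Gsta4 was at 8.17, 8.30 and 8.34 in the jejunum labelled cKO, against 8.86, 8.60 and 8.14 in WT jejunum, again with overlap. Over the 31 members the groups did not overlap for 16, where 27.2% of all genes tested did not overlap.

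Of 13 stromal markers tested, 1 rose and 0 fell in the jejunum labelled cKO, and of 8 goblet markers, 4 rose and 0 fell, with mean levels per array of 10.44 to 10.82 in the jejunum labelled cKO and 9.96 to 10.70 in WT jejunum. With the stromal mean as a covariate, 10 members fell. The part of goblet cells in the result was not tested. Against WT ileum, 11 members were higher in the jejunum labelled cKO and 0 lower, where 3.26% of all genes tested were higher and 1.84% lower; of the 29 with all group means above the filter, 10 were higher and 0 lower. Besides the genes set against WT ileum above these were Gstk1 (0.99), Ugt2b35 (1.13), Ugt2b34 (0.56), Gstt1 (0.82), Gstm4 (0.69) and Gsto1 (0.39). The last 3 calls ended without most single arrays of the comparison. Adjusted p then reached 0.0699 to 0.124 for Gstt1, 0.062 to 0.149 for Gstm4 and 0.0562 to 0.16 for Gsto1. The call of Gstk1 ended without the second WT ileum array (adjusted p = 0.0645), and that of Ugt2b34 without the first array of the jejunum labelled cKO or the second or the third WT ileum array (0.0557 to 0.0787). With only the arrays of both groups in the fit the count was 7, and without the second WT ileum array it was 6.

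In cKI ileum, set against control ileum to ask which enzymes change where Gata4 is expressed in ileum, 3 members rose, 0 fell and 28 did not pass. Among all genes tested, 0.339% rose and 0.424% fell. The median difference of the 31 members was 0.20, beside 0.03 over all genes, and of the 29 members with all group means above the filter, 2 rose. The members that rose were Ugt2a3, Gstm6 and Gstm7.

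Ugt2a3 was at 8.52, 8.33 and 8.47 in cKI ileum, against 5.98, 7.47 and 6.62 in control ileum. The control arrays were spread over a wider range than the cKI arrays, and the groups did not overlap. Ugt2a3 rose by 1.75 ± 0.281 (3.37-fold, adjusted p = 0.0142), and this call ended without the first cKI array (1.71, adjusted p = 0.0702) and with only the 6 arrays compared in the fit (adjusted p = 0.0966). With the stromal mean as a covariate the difference was 2.51 (adjusted p = 0.00163).

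Gstm6 was at 5.43, 5.64 and 5.51 in cKI ileum, against 4.52, 4.78 and 4.67 in control ileum, where all 3 values were below the filter. The groups did not overlap and the difference was 0.87 ± 0.168 (adjusted p = 0.0332). Gstm7 was at 6.06, 6.28 and 6.24 in cKI ileum, against 5.19, 5.57 and 5.67 in control ileum, a rise of 0.72 ± 0.154 (1.65-fold, adjusted p = 0.0477). With the replicate number as a block in the groups compared, whose deviations were read as paired, none of the calls ended. A block over all arrays also covers groups that were not taken as paired, and with it Gstm7 did not pass (adjusted p = 0.0697). Leaving out any single array of the comparison ended the calls of Gstm6 (adjusted p = 0.0545 to 0.0846) and Gstm7 (0.0585 to 0.142), and with the stromal mean as a covariate their adjusted p were 0.133 and 0.165. Without the first cKI array 0 members were called.

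Several other members were separate in every array without passing the test. Gstm3 was at 9.88, 10.60 and 9.18 in cKI ileum, against 8.87, 8.30 and 8.44 in control ileum, a difference of 1.35 ± 0.344 (adjusted p = 0.0929), and the cKI arrays varied more than those of the control. Its second array row gave means of 9.69 in cKI ileum and 8.24 in control ileum. Gstm1 was at 8.45, 8.87 and 8.24 in cKI ileum, against 7.48, 7.59 and 7.83 in control ileum (0.88 ± 0.201, adjusted p = 0.0602). Gstm4 was at 7.01, 6.99 and 6.92 in cKI ileum, against 6.64, 6.12 and 6.72 in control ileum (0.48 ± 0.18, adjusted p = 0.245). Each mu-class gene had a difference above 0, with Gstm5 at 0.47 and Gstm2 at 0.22. Sult1c2 was at 4.88, 4.84 and 5.10 in cKI ileum, against 5.43, 5.86 and 5.72 in control ileum (-0.73 ± 0.212, adjusted p = 0.137). When arrays were weighted by quality, Gstm3 (adjusted p = 0.011), Gstm1 (0.0147) and Sult1c2 (0.0169) also passed. Over the 31 members the groups did not overlap for 12, where 20.9% of all genes tested did not overlap.

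Other genes that fell in the jejunum labelled cKO did not pass in cKI ileum. Gstk1 was at 8.84, 8.84 and 8.88 in cKI ileum, against 8.02, 8.81 and 8.42 in control ileum (0.44 ± 0.204, adjusted p = 0.326), without overlap. Gstt1 was at 6.83, 6.85 and 6.97 in cKI ileum, against 6.04, 6.96 and 6.56 in control ileum (0.36 ± 0.214, adjusted p = 0.443), with the second control array among the cKI values. Mgst3 was at 9.22, 9.53 and 9.32 in cKI ileum, against 9.30, 9.05 and 9.19 in control ileum (0.18 ± 0.123, adjusted p = 0.511), and Sult1b1 was at 9.99, 10.02 and 9.46 in cKI ileum, against 9.85, 9.77 and 9.40 in control ileum (0.15 ± 0.176, adjusted p = 0.72). Both overlapped. Mgst2 was at 9.52, 9.92 and 9.39 in cKI ileum, against 9.67, 9.38 and 9.46 in control ileum, and Gstp3 was at 5.78, 5.98 and 6.09 in cKI ileum, against 5.45, 5.77 and 5.86 in control ileum. Gsta4 was at 8.65, 8.17 and 8.20 in cKI ileum, against 8.01, 9.17 and 9.14 in control ileum (-0.43 ± 0.256, adjusted p = 0.44), and without the first control array it fell by 0.81 on the log2 scale (adjusted p = 0.0443).

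Of the abundant members, Ugt2b34 was at 11.14, 11.19 and 10.91 in cKI ileum, against 11.00, 10.99 and 10.80 in control ileum. Gstp1 was at 10.64, 10.81 and 10.58 in cKI ileum, against 10.03, 10.72 and 10.49 in control ileum. Both pairs of groups overlapped. Gsto1 was at 10.19, 10.06 and 10.10 in cKI ileum, against 10.03, 10.01 and 10.01 in control ileum, a difference of only 0.10 ± 0.099. Sult1d1 was at 10.05, 9.77 and 9.71 in cKI ileum, against 9.66, 10.17 and 9.81 in control ileum, and Mgst1 was at 9.86, 9.90 and 9.95 in cKI ileum, against 9.94, 9.88 and 10.04 in control ileum. These overlapped as well. Ugt2b5 was at 5.76, 5.99 and 6.34 in cKI ileum, against 6.08, 6.56 and 5.86 in control ileum, Gstt3 was at 7.59, 7.77 and 7.84 in cKI ileum, against 7.53, 7.69 and 7.68 in control ileum, and Gstz1 was at 6.82, 6.84 and 7.19 in cKI ileum, against 6.53, 6.54 and 6.88 in control ileum. None of the 3 passed.

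The stromal markers' mean levels, given above, overlapped between cKI and control ileum by little, with the lower range in cKI ileum, and 2 of the 13 tested fell. B and plasma cell markers had mean levels per array of 5.67 to 5.91 in cKI ileum and 5.88 to 7.51 in control ileum, and 1 of 7 fell. T and NK cell markers had mean levels of 4.75 to 5.93 in cKI ileum and 6.01 to 6.66 in control ileum, with no overlap. All 6 of those tested had a difference below 0 (median -1.21), though none passed, and Cd3d and Cd4 stayed below the filter in all groups. The part of B, plasma, T and NK cells in the differences between cKI and control ileum was not tested.

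**Figure D3:**
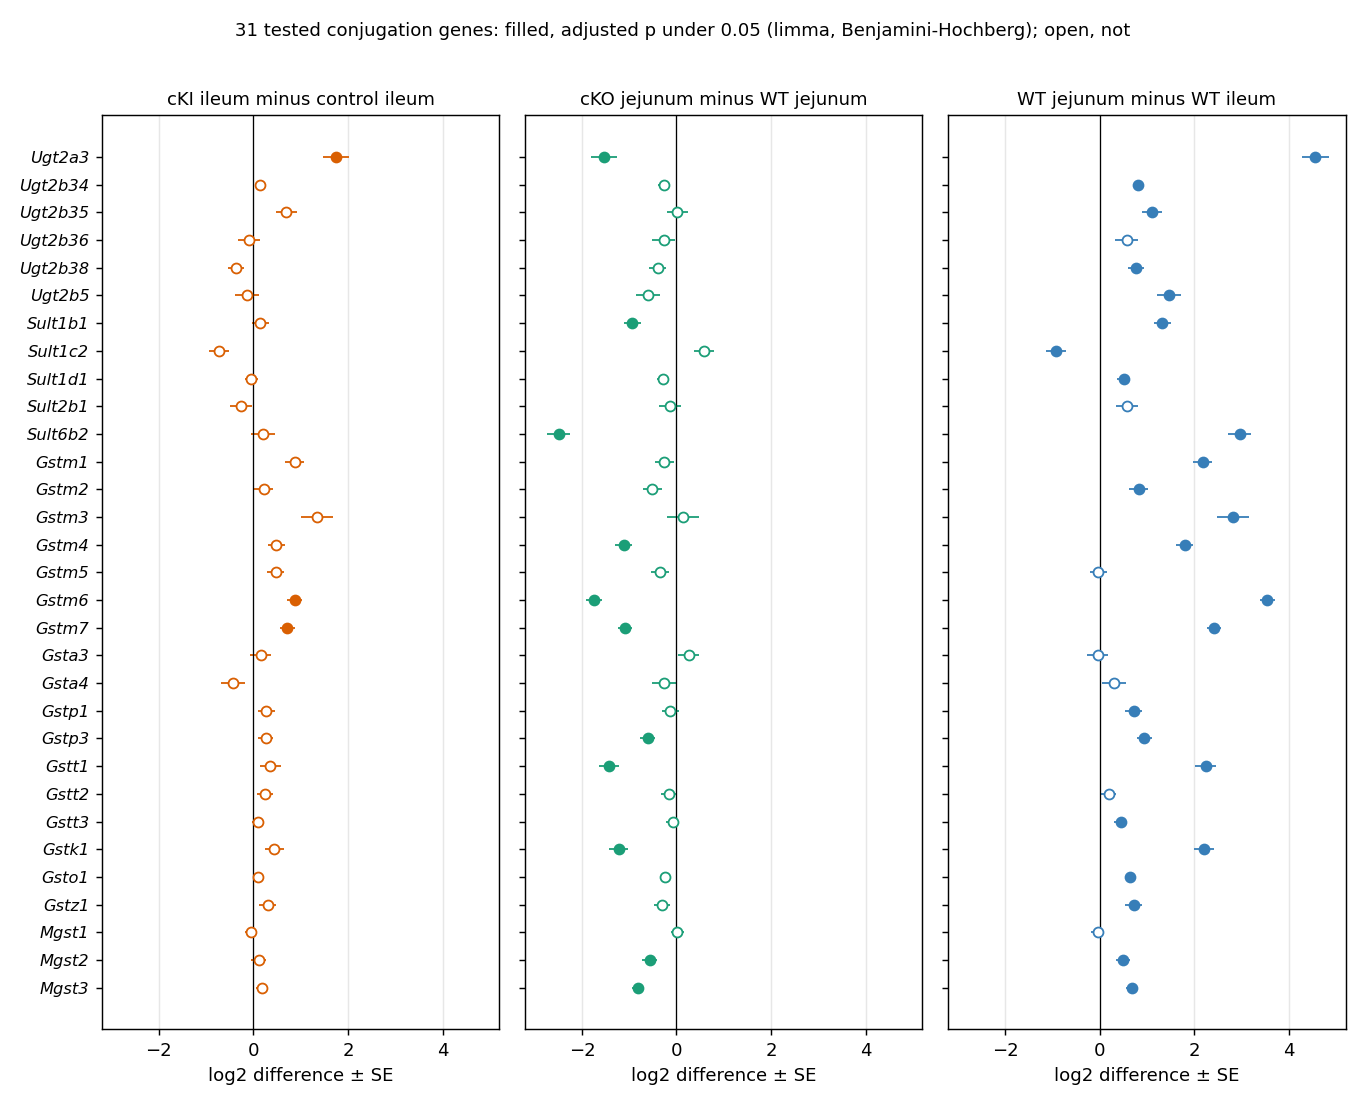
Log2 differences with SE of the 31 tested members in 3 comparisons: cKI minus control ileum, cKO minus WT jejunum, and WT jejunum minus WT ileum. Filled points passed an adjusted p of 0.05 (3, 11 and 24 genes), and open points did not.

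An interaction in the same fit tested whether cKI minus control ileum equalled WT jejunum minus the jejunum labelled cKO. Since its jejunal side sets cKO mice against WT mice, Gata4 and mouse strain cannot be told apart in it. Of the 29 members with all 5 group means above the filter, 0 passed by limma (10 had an unadjusted p under 0.05), where 1.2% of all genes passed in the upward and 1.74% in the downward direction. Among all 31 members tested, Sult6b2 had a value past the threshold, at -2.29 ± 0.35 (adjusted p = 0.00275). It was tested through its WT jejunum level alone, so no ileal difference could be measured for it and the value is given as a description. Sult6b2 was at 3.50, 3.19 and 3.15 in cKI ileum, against 3.05, 2.99 and 3.21 in control ileum, and all 6 values lay below the filter. Its difference was 0.20 ± 0.247 in cKI ileum, beside -2.49 ± 0.247 in the jejunum labelled cKO. For Ugt2a3 the interaction was 0.22 ± 0.397 (adjusted p = 0.824), and for Gstm7 it was -0.37 ± 0.218 (adjusted p = 0.421). For Gstm6 (-0.87, adjusted p = 0.0656), Mgst3 (-0.65, 0.0616) and Gstt1 (-1.06, 0.0806) it did not pass, though some alternatives called them. Gstm3 had 1.49 ± 0.486 (adjusted p = 0.127), with the opposite sign to Gstm6.

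Levels in cKI ileum were also set beside those of WT jejunum, where 25.5% of all genes tested were higher in cKI ileum and 16.3% lower. The strain of the cKI mice is not given, so region, Gata4 and mouse strain cannot be told apart in this comparison. Of the members, 2 were higher (Ugt2b36 and Gstm5), 17 were lower and 12 did not pass. Of the 29 members with all group means above the filter, 2 were higher and 15 lower. The Gstm5 call (0.48) ended when any array was left out (adjusted p = 0.078 to 0.129). Markers of cell types moved between the same arrays: 8 of 12 enterocyte markers were lower and 1 higher in cKI ileum, and 8 of 10 stem and proliferating cell markers, 5 of 13 stromal markers, 4 of 8 goblet markers and 4 of 6 Paneth cell markers were higher. Enterocyte markers had mean levels per array of 10.95 to 11.69 in cKI ileum and 11.88 or more (mean 11.96) in WT jejunum, and stem and proliferating cell markers 8.54 to 8.78 in cKI ileum and 8.0 to 8.17 in WT jejunum. With the stromal mean as a covariate Gstm4, Gstz1 and Gstm5 did not pass, and the part of the other cell types was not tested. Ugt2a3 differed by -1.25 ± 0.281 (2.37-fold lower in cKI ileum, adjusted p = 0.0026), Gstm6 by -1.99 (3.97-fold) and Gstm3 by -1.70 (3.26-fold).

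Control ileum and WT ileum came from mice of different labels, and many genes differed between them, 19.3% higher and 8.61% lower in control ileum. Of the members, 7 rose in control ileum relative to WT ileum, 1 fell and 23 did not pass. The groups did not overlap for 9, where 44.8% of all genes did not, and the median was 0.12 beside 0.08 for all genes. Of the 29 members with all group means above the filter, 6 rose and 1 fell. Ugt2b36, described after its values were seen, was at 7.61, 8.28 and 7.60 in control ileum, against 5.78, 6.28 and 5.98 in WT ileum, a rise of 1.82 ± 0.238 (3.52-fold, adjusted p = 9.6e-05). It was at 7.80, 7.54 and 7.89 in cKI ileum, and at 6.24, 5.95 and 6.74 in the jejunum labelled cKO, against 6.80, 6.80 and 6.14 in WT jejunum. All cKI and control ileum arrays thus lay above all other arrays. Ugt2a3 rose by 1.56 ± 0.281 (2.94-fold, adjusted p = 0.001) and Gstk1 by 1.11 (adjusted p = 0.00115). Sult1b1 rose by 0.82, Gstm4 by 0.79 and Gsto1 by 0.53. Gstm6 was counted with a difference of 0.69, but its means of 4.66 in control ileum and 3.97 in WT ileum both lay below the filter. Its value is therefore given as a description. With the stromal mean as a covariate Gstm6 did not pass (0.57, adjusted p = 0.0592). Mgst3 fell by 0.75 on the log2 scale (adjusted p = 0.000508). Gata4 was also higher in control than in WT ileum, by 1.22 ± 0.185 (adjusted p = 0.000284), and of 13 stromal markers tested 4 rose and 1 fell. Of 10 enteroendocrine and 10 stem and proliferating cell markers, 5 each rose and 0 fell, and their part in the result was not tested.

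Genes that supply the cofactors were followed beside the members. PAPS for the SULT enzymes is made by the PAPS synthases Papss1 and Papss2, and its product PAP is removed by the nucleotidase Bpnt1. Papss2 was at 12.03, 12.31 and 12.15 in WT jejunum, against 10.58, 10.19 and 10.29 in WT ileum, a rise of 1.81 ± 0.22 (adjusted p = 2.78e-05). It was at 11.04, 10.36 and 11.13 in the jejunum labelled cKO, below all WT jejunum arrays (-1.32 ± 0.22, adjusted p = 0.000954), and did not pass in cKI ileum (-0.36, adjusted p = 0.45). Papss1 went the other way between the regions (-0.88, adjusted p = 0.000151). Bpnt1 was at 10.30, 10.58 and 10.17 in cKI ileum, against 9.72, 9.65 and 9.55 in control ileum, a rise of 0.71 ± 0.123 (adjusted p = 0.0172). It fell by 1.38 on the log2 scale in the jejunum labelled cKO (adjusted p = 4.32e-06) and rose by 1.84 in WT jejunum relative to WT ileum (adjusted p = 8.29e-08). Gclm, the modifier subunit of the enzyme that starts glutathione synthesis, rose by 0.86 in WT jejunum (adjusted p = 0.000227) and had a difference of 0.01 in the jejunum labelled cKO (adjusted p = 0.964). Of the 15 cofactor genes tested, 5 rose and 3 fell in WT jejunum relative to WT ileum, 2 rose and 2 fell in the jejunum labelled cKO, and 1 rose and 0 fell in cKI ileum.

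Sulfate, from which PAPS is made, comes from sulfite oxidation and from uptake. Suox, which oxidises sulfite to sulfate, was at 8.62, 9.12 and 8.66 in cKI ileum, against 10.66, 10.60 and 10.61 in control ileum (-1.82 ± 0.151, adjusted p = 3.57e-05). It was at 10.67, 10.13 and 10.36 in the jejunum labelled cKO, against 5.96, 5.89 and 5.78 in WT jejunum (4.51 ± 0.151, adjusted p = 1e-10). The value of WT jejunum was also the low one against WT ileum (-4.59). The sulfate transporter Slc13a1 was at 9.59, 9.54 and 9.92 in cKI ileum, against 11.70, 11.60 and 11.33 in control ileum (-1.86 ± 0.257, adjusted p = 0.00499), and at 11.51, 11.09 and 11.30 in the jejunum labelled cKO, against 9.16, 9.68 and 8.36 in WT jejunum (2.23 ± 0.257, adjusted p = 3.94e-05). The anion exchanger Slc26a2 rose by 1.17 in the jejunum labelled cKO, while Slc26a6 rose by 1.03 in WT jejunum relative to WT ileum. Of 4 sulfate genes tested, 0 rose and 2 fell in cKI ileum, 3 rose and 0 fell in the jejunum labelled cKO, and 1 rose and 3 fell in WT jejunum relative to WT ileum.

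**Figure D4:**
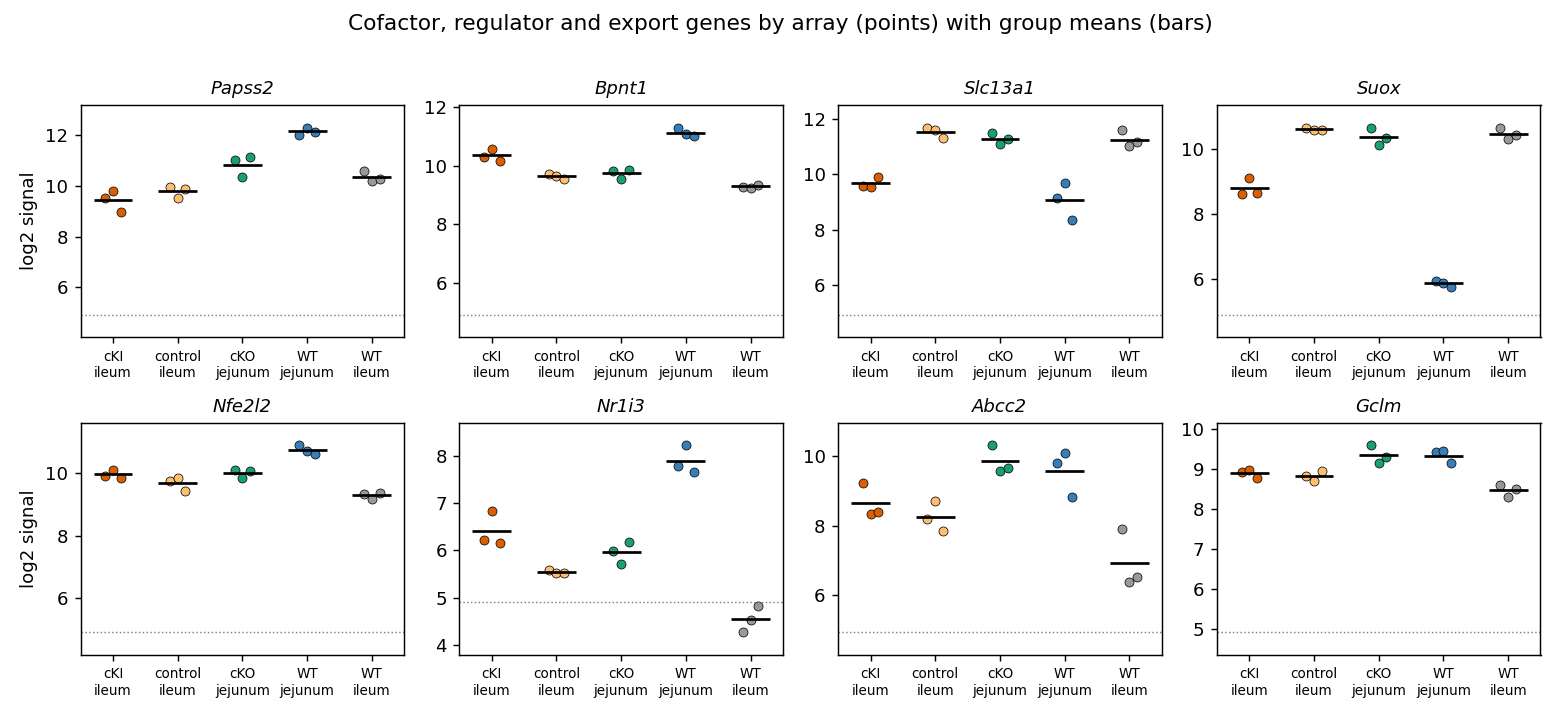
Log2 signal of 8 cofactor, regulator and export genes in each array (points) with group means (bars) in the 5 groups; the dotted line is the level filter of 4.91. Suox lies at 10.13 to 10.67 in the jejunum labelled cKO and at 5.78 to 5.96 in WT jejunum, while Papss2 lies at 10.36 to 11.13 in the jejunum labelled cKO and at 12.03 to 12.31 in WT jejunum.

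Among the regulators, Nr1i3 encodes the xenobiotic sensor CAR. It was at 7.80, 8.24 and 7.66 in WT jejunum, against 4.26, 4.53 and 4.82 in WT ileum, all below the filter. It differed by 3.36 ± 0.198 (adjusted p = 2.23e-08). It was at 5.98, 5.72 and 6.19 in the jejunum labelled cKO, a difference of -1.93 ± 0.198 relative to WT jejunum (adjusted p = 1.37e-05). In cKI ileum it was at 6.23, 6.83 and 6.15, against 5.59, 5.52 and 5.52 in control ileum, without overlap (0.86 ± 0.198, adjusted p = 0.0633). Nfe2l2, which encodes NRF2, the activator of many GST genes under oxidative stress, rose by 1.44 in WT jejunum relative to WT ileum (adjusted p = 1.26e-06) and fell by 0.73 on the log2 scale in the jejunum labelled cKO (adjusted p = 0.00132). Nr1h4, the bile acid receptor FXR, and Foxa1 moved the other way, by 1.29 and 1.23 in the jejunum labelled cKO and by -1.77 and -1.36 in WT jejunum relative to WT ileum. Of 18 regulators tested, 6 rose and 3 fell between the WT regions, 3 rose and 5 fell in the jejunum labelled cKO, and 0 passed in cKI ileum.

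Targets of NRF2 outside the GST families did not move as one. Of 15 tested, 4 rose and 1 fell in WT jejunum relative to WT ileum, 2 rose and 0 fell in the jejunum labelled cKO, and 0 passed in cKI ileum. Me1 (malic enzyme) rose by 1.37 between the regions and Gpx2, a glutathione peroxidase of the gut, differed by -0.93 there and by 0.92 in the jejunum labelled cKO. Among export genes, Abcc2, the pump for glucuronide and glutathione conjugates (MRP2), was at 9.81, 10.10 and 8.82 in WT jejunum, against 7.89, 6.36 and 6.51 in WT ileum (2.66 ± 0.409, adjusted p = 0.000235), and had a difference of 0.28 in the jejunum labelled cKO (adjusted p = 0.725). Abcb1a (P-glycoprotein) and the basolateral bile acid exporters Slc51a and Slc51b rose in the jejunum labelled cKO, by 1.58, 1.60 and 1.44. Of 9 export genes tested, 1 rose and 6 fell in WT jejunum relative to WT ileum, 4 rose and 0 fell in the jejunum labelled cKO, and 0 rose and 1 fell in cKI ileum.

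Of 7 conjugating enzymes tested outside these families, 5 rose in WT jejunum relative to WT ileum, 3 fell in the jejunum labelled cKO and 0 passed in cKI ileum. Ltc4s (leukotriene C4 synthase, which also uses glutathione) rose by 1.89 in WT jejunum (adjusted p = 5.44e-07), with a WT ileum mean of 4.81, below the filter. It fell by 1.14 on the log2 scale in the jejunum labelled cKO (adjusted p = 0.00014). Tpmt (thiopurine methyltransferase) rose by 0.94 and fell by 0.91, and Nat2 (an N-acetyltransferase) rose by 0.91 and fell by 0.76, in the same comparisons. As3mt, an arsenic methyltransferase, rose by 0.63 in WT jejunum only, among the 3 comparisons. Of 7 enzymes that remove conjugates or break them down, 1 rose in WT jejunum (Lap3, a leucine aminopeptidase, by 0.92), and 0 passed in either Gata4 comparison.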

How the data were processed

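RNA of isolated small intestinal epithelium was hybridised to 15 arrays. The authors deposited log2 signals, 1 value for each of 35556 transcript clusters, made in Partek, per the submitters' processing notes and the design text; not given in the sources used here are its version, the background correction and the normalization. That the scale is log2 was read from the values. Groups were taken from the sample titles.

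Of the clusters, 21789 carried 1 symbol in the platform annotation, 1621 several and 12146 none here. The highest-mean cluster stood for each of 19938 symbols, and the 11784 genes with a group mean above 4.91 (the median of all values) were tested with limma 3.58.1 in R 4.3.3. The fit had 1 mean per group over 15 arrays (10 residual degrees of freedom), two-sided moderated tests and Benjamini-Hochberg adjustment over all genes tested, with 0.05 as threshold. The code was tested on simulated data. Clusters of several symbols were fitted apart.

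Members, gene lists and tests were chosen with earlier results of these data known. Every member was accounted for. Values per array were given for Gstm6, Gstm3 and Ugt2a3, for members called in either Gata4 comparison, for the 10 largest rises and falls between the WT regions and for the highest member of each family, with up to 4 genes by smallest p from each pathway list.

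Whether replicate numbers pair the arrays was checked by correlating deviations from group means. Between cKI and control ileum these were 0.128, 0.177 and 0.258, and between WT jejunum and WT ileum 0.334, 0.216 and 0.161, all over the preset 0.1, so the numbers were taken to pair these arrays, as a reading of the data and not of the labels. They were 0.185, -0.0247 and -0.0732 between cKO and WT jejunum, and -0.103, -0.265 and -0.00722 between control and WT ileum, which were not taken as paired. Nor were cKO jejunum and WT ileum (0.474, 0.257 and 0.058), or cKI ileum and WT jejunum (-0.0574, 0.0151 and 0.101). The largest value, 0.474, was between groups of different genotype, so a high value alone does not mark arrays of a shared animal. The reported p-values come from the fit without a block. The alternatives were other level filters, normalizations, variance models, array weights, the replicate block, a stromal covariate and each array left out. Promoter windows came from RefSeq (GRCm38.p6).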

Additional observations from a re-analysis of the deposited data

Results flagged for a closer look

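Sult6b2 was picked out because its interaction value lay past the threshold (-2.29 ± 0.35 on the log2 scale, limma adjusted p = 0.00275). It averaged 3.28 ± 0.19 in cKI ileum and 3.08 ± 0.11 in control ileum (SD, n = 3 each), both below the level filter of 4.91, and 3.93 ± 0.55 in the jejunum labelled cKO and 6.42 ± 0.37 in WT jejunum. It passed the filter through WT jejunum alone, so no ileal difference could be measured, and the value does not show that ileum and jejunum differ.

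The rows of these families that carried several symbols were in no comparison of the members, and 7 of these 10 rows passed the level filter. Fitted among 872 tested rows of several symbols, 5 of the 7 were lower in the jejunum labelled cKO than in WT jejunum, and none can be assigned to 1 gene. A row of Ugt1 symbols differed by -0.70 ± 0.137 (adjusted p = 0.0117), with means of 8.18 ± 0.16 in the jejunum labelled cKO and 8.88 ± 0.10 in WT jejunum (SD, n = 3 each). The 4 Gsta rows differed by -1.40, -1.38, -1.25 and -1.27 (adjusted p = 0.0283, 0.027, 0.0282 and 0.0244). Since the Gsta rows share symbols, they are not separate observations. In WT jejunum relative to WT ileum all 7 rows were higher, the Ugt1 row by 1.67 ± 0.137 and the 4 Gsta rows by 1.29, 1.30, 1.20 and 1.23, and in cKI ileum relative to control ileum 0 of 7 passed. The shares called among all 872 rows were not counted. These counts of rows therefore have no background beside them and are given as a description.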

How the results depend on the processing

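Over the 31 tested members, no difference past the threshold, in the fit as reported or under an alternative run, changed direction. Of the comparisons, cKI against control ileum depended most on the processing: 3 members were called, against 1 with only the arrays compared, 1 with the stromal covariate, 2 without a level filter or with the replicate block over all arrays (3 with the block in the groups compared), 7 with array weights (6 higher, 1 lower), and 0 to 2 with 1 array left out (0 to 1 higher, 0 to 1 lower). Jejunum labelled cKO against WT jejunum kept counts of 9 to 13 with 1 array left out (0 to 1 higher, 9 to 13 lower), with 2 higher without a level filter. WT jejunum against WT ileum gave 21 to 25 (20 to 24 higher, 1 lower), with 0 lower under the stromal covariate, and without a level filter the members' median was 0.50. Control against WT ileum gave 8 to 10 (7 to 9 higher, 1 lower), with 2 lower without a level filter. The jejunum labelled cKO against WT ileum gave 6 to 11 higher (0 lower), and 7 with only the arrays compared. cKI ileum against WT jejunum gave 15 to 17 (1 to 2 higher, 13 to 16 lower), with 1 higher without a level filter, after quantile normalization, with arrays centred on their medians, with the block in the groups compared and with the stromal covariate, and a median of -0.28 without a level filter. The interaction gave 1 to 3 (0 higher, 1 to 3 lower), 2 after quantile normalization or with a mean-variance trend and 6 with array weights. Leaving out arrays lowers their number by construction; for the other alternatives the cause was not tested. The replicate block over all arrays ended the call of Gstm7 in cKI against control ileum (adjusted p = 0.0697). It also ended those of Gstm4 and Gstt1 in the jejunum labelled cKO against WT ileum (0.063 and 0.0625, groups not taken as paired). Within the groups compared, the block added Gstp1 and Ugt2b5 there (0.0446 and 0.0259). It ended the call of Gstm5 in cKI ileum against WT jejunum (0.0678). Neither block ended any other call of a member or added any other among the named members. Of the differences of named members that did not pass, 23 changed sign under at least 1 alternative, and none of these passed there either. The largest of them was 0.23 in size as reported. With 1 array left out, the cKI against control ileum differences ranged from -0.15 to 0.11 for Sult1d1, from -0.05 to 0.21 for Mgst2 and from -0.29 to 0.06 for Ugt2b5. In the jejunum labelled cKO against WT jejunum they ranged from -0.25 to 0.06 for Gstt3 and from -0.14 to 0.18 for Mgst1. Against WT ileum, those of the jejunum labelled cKO ranged from -0.19 to 0.14 for Mgst1 and from -0.20 to 0.03 for Mgst2. For control against WT ileum the ranges were -0.11 to 0.15 (Gstp3), -0.02 to 0.15 (Mgst2), -0.26 to 0.11 (Gstp1), -0.12 to 0.05 (Ugt2b34) and -0.47 to 0.19 (Gstm3). For cKI ileum against WT jejunum they were -0.04 to 0.02 (Gsto1) and -0.21 to 0.03 (Sult1c2). For the interaction they were -0.21 to 0.14 (Gstz1), -0.19 to 0.14 (Mgst1), -0.15 to 0.16 (Gstt3), -0.05 to 0.29 (Gstp1), -0.13 to 0.61 (Ugt2a3) and -0.42 to 0.01 (Sult1c2). The stromal covariate turned Sult1d1 (0.15) and Sult6b2 (-0.14) in cKI against control ileum, Gstp3 in control against WT ileum (-0.02) and Mgst1 in cKI ileum against WT jejunum (0.00). Array weights turned Sult1d1 in cKI against control ileum (0.09), Mgst1 in the jejunum labelled cKO against WT ileum (0.01), Gsto1 in cKI ileum against WT jejunum (0.02) and the interaction of Gstt3 (-0.06). Quantile normalization turned Gstp3 (-0.09), Gstt3 (-0.06) and Mgst2 (-0.00) in control against WT ileum and the interaction of Gstz1 (0.02). Centring on array medians turned Gstp3 in control against WT ileum (-0.03), Mgst1 in the jejunum labelled cKO against WT ileum (0.02) and the interactions of Gstz1 (0.06) and Mgst1 (0.03). No comparison of signal to background was possible from these values, so genes below the level filter have no tested difference.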
